A study of Mus musculus with 24 samples.

Results

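The comparison described here set 3T3-L1 adipocytes treated with GW347845, a selective agonist of the nuclear receptor PPARγ, against adipocytes given the DMSO vehicle, on whole-genome Illumina bead arrays. Its 12 samples, 6 per group, were chosen by their labels from the 24 samples of the series, whose other 12 were 6 arrays of the PPARδ agonist GW610742 and the same 6 DMSO hybridizations normalized with them. 3T3-L1 is a mouse embryo fibroblast line that becomes adipocyte-like after hormonal induction, and both groups here had been through that induction, were given the agonist or the vehicle from day 11 after it and were collected 48 h later. The sample labels give GW347845 at 100 μM, whereas the methods of the study give 10 nM and 100 nM without saying which was used for the arrays, so the dose behind these values is uncertain. A single cell line was used, the labels number the replicates without saying whether they came from separate cultures, and p-values below measure the spread between these samples.

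PPARγ works as a heterodimer with the retinoid X receptor, binds DNA at paired half-sites and drives the genes of fat cell formation, lipid uptake and triglyceride storage. Adipocytes are also secretory cells: they lay down a collagen-rich basement membrane, send hormones through the ER and Golgi, and move transporters through endosomes. During adipose conversion the fibroblast matrix is remodelled, and Wnt signals, which reach the nucleus through β-catenin, are known to hold preadipocytes undifferentiated. The genes of the matrix, of Wnt signalling, of membrane traffic and of the ER and Golgi are described first below, and the genes that rose afterwards.

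Every value is a variance-stabilized, quantile-normalized signal on a log2-like scale, which ran from 6.25 to 14.76 with a median of 8.16, and 13755 probes had values in all 12 samples. A fold change is the mean of the GW347845 samples minus the mean of the DMSO samples on that scale, "rose" and "fell" are used where limma's moderated test gave a Benjamini-Hochberg adjusted p under 0.05 over all 13755 probes, and a gene is represented by its brightest probe. Where a count is given without named replicates, these were left out one at a time. The samples did not vary independently of their numbers. In the GW347845 group, deviations from the group mean correlated between 0.18 and 0.62 for pairs within replicates 1 to 3 or within replicates 4 to 6, and between -0.75 and -0.57 for pairs across these sets. Among DMSO samples the ranges were -0.18 to 0.23 and -0.44 to -0.32. No label names a batch, so fold changes are also given within replicates 1 to 3 and within replicates 4 to 6. GW347845 replicate 6 stood closest to the controls: its median correlation with the other treated samples was 0.987 and that with the controls 0.990.

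The cell type label was compared with marker genes. Adiponectin, Adipoq, the hormone that defines adipocytes, had a lowest, median and highest value of 12.40, 12.84 and 13.58 in DMSO and of 12.05, 13.36 and 14.12 with GW347845, whereas the probe of Fabp4, the fatty acid carrier of adipocytes, lay between 6.32 and 6.47 in DMSO, near the bottom of the scale. Dlk1, the preadipocyte factor that is normally lost on conversion, lay between 14.27 and 14.45 in DMSO and between 14.36 and 14.48 with GW347845, near its top. Of 10 adipocyte markers measured, 3 rose (30%, against 10.2% of all genes) and 0 fell, with a median fold change of 0.44. These were Gpd1, Aqp7 and Fabp4 (adjusted p = 0.031, 0.039 and 0.016). The calls of Gpd1 and Aqp7 did not hold when any of GW347845 replicates 1, 2 or 3 or of DMSO replicates 4, 5 or 6 was left out, nor did that of Aqp7 without DMSO replicate 1 or 2. Over the 10 markers the mean value per sample was between 9.15 and 9.52 in treated replicates 1 to 3 and between 7.98 and 8.39 in treated replicates 4 to 6, against 7.97 to 8.66 in DMSO. Of 17 preadipocyte and fibroblast markers, 3 fell (17.6%, against 12.8% of all genes) and 0 rose. Over the 17 the mean per sample was 10.08 to 10.25 with GW347845 and 10.23 to 10.30 in DMSO. Macrophage and endothelial markers were not among the measured genes. In such bulk samples fewer cells of a type and less RNA per cell cannot be told apart.

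GW347845 was followed by more falls than rises. Of 13755 probes 3282 changed (23.9%), of which 1431 rose (10.4% of all probes) and 1851 fell (13.5%). With 1 sample left out at a time, 991 to 1966 probes rose and 1659 to 2047 fell. Both highest counts were those without GW347845 replicate 6, so the size of this excess of falls depends on single samples. Over 8297 genes, 847 rose (10.2%) and 1063 fell (12.8%). The groups did not overlap at all for 692 of the genes that fell (8.34% of all genes) and for 230 of those that rose (2.77%). Among the probes that passed, falls were also more often large: 420 fell by more than 0.5 and 71 rose by more than 0.5. The medians were -0.32 over the falls and 0.21 over the rises. The largest single change was nevertheless a rise, of 2.55, against a largest fall of -1.42. Probes that did not pass, whatever their size, are not in these counts.

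The sizes of the largest changes in the replicate sets are given as a description, since the calls rest on both sets. Of 34 genes that rose by more than 0.8 in replicates 1 to 3, 1, Plin4, also rose by more than 0.8 in replicates 4 to 6. Of 45 genes that fell by more than 0.8 in replicates 1 to 3, 34 also fell by more than 0.8 in replicates 4 to 6.

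**Figure D1:**
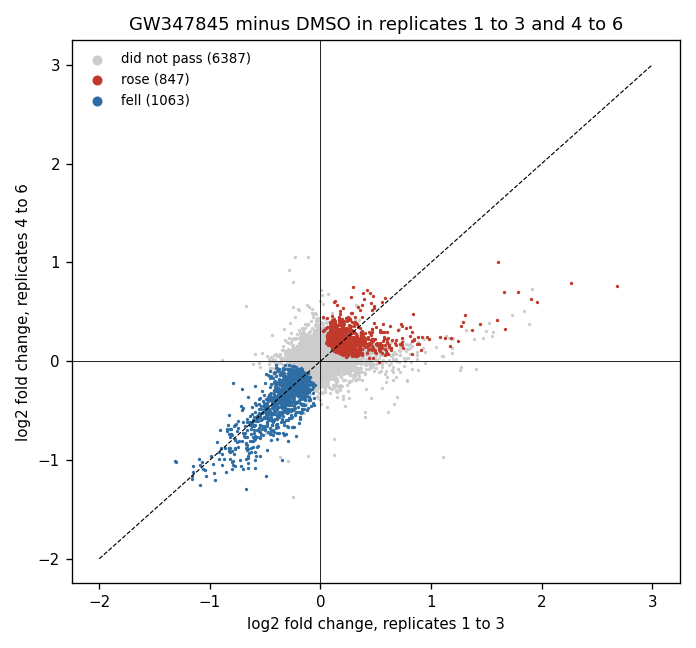
Each point is 1 of 8297 genes, with the log2 fold change of GW347845 over DMSO in replicates 1 to 3 on the horizontal axis and in replicates 4 to 6 on the vertical axis, coloured by whether the gene rose (847), fell (1063) or did not pass the test over all 12 samples. The falls lie along the dashed line of equality, whereas the largest rises lie to the right of it, with values above 1 in replicates 1 to 3 and mostly below 1 in replicates 4 to 6.

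A second measurement of the same gene often did not show the change. Of the 1063 genes that fell, 311 had a second probe. That probe fell in 77 (24.8%) and rose in 18, and its median fold change was -0.03, against -0.29 on the brightest probe. Of the 847 genes that rose, 297 had a second probe, which rose in 86 (29.0%) and fell in 31, with medians of 0.11 and 0.22. For GW610742 the second probe fell in 80 of 268 genes that fell and rose in 5. Restricting the falls to second probes above the median signal gave 37 of 115 (32.2%). Probes of a gene can read different transcript ends, and the part of probe position or specificity in these differences was not tested. Fold changes of second probes are therefore given beside the genes named below that had them.

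**Figure D2:**
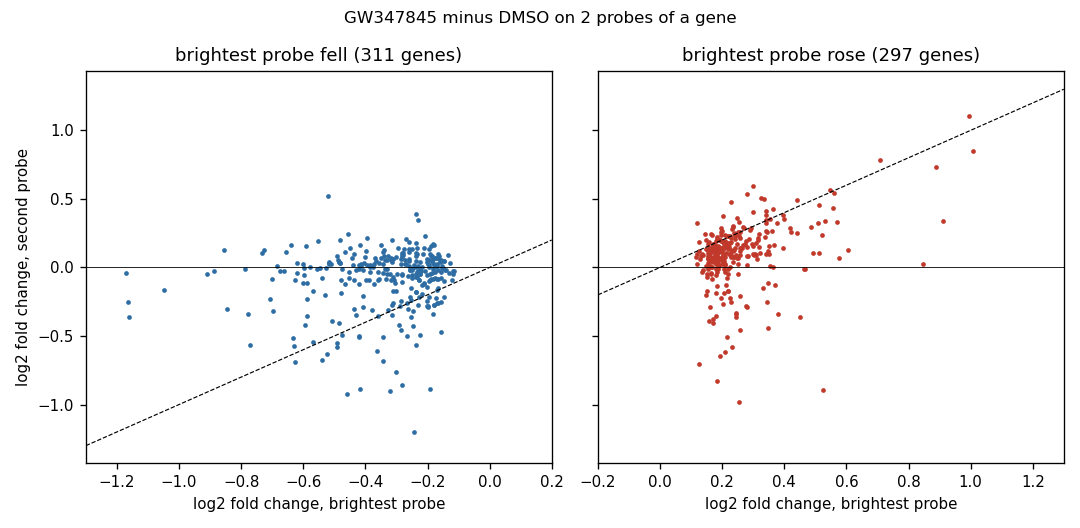
Each point is a gene with at least 2 probes, with the log2 fold change of GW347845 over DMSO on its brightest probe on the horizontal axis and on its second brightest probe on the vertical axis, for 311 genes that fell (left) and 297 genes that rose (right). Most second probes of the genes that fell lie around 0, with a median of -0.03, rather than along the dashed line of equality.

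The extracellular matrix genes included several of the largest falls of the comparison. Of 141 measured, 26 fell (18.4%, against 12.8% of all genes) and 8 rose. In the collagen list 6 of 16 genes fell (37.5%) and 1 rose (6.25%, against 10.2% of all genes). The rises were 2 without GW347845 replicate 6. The largest of the collagen falls were of fibrillar collagens. The median fold change of all 141 was -0.01, against 0.03 over all genes, and 107 did not pass. Of the 26 that fell, 8 had a second probe, which fell in 2. With GW347845 replicates 1 to 3 against all controls 46 of the 141 fell, and with replicates 4 to 6 against all controls 20 did. Over all genes 2909 and 1906 changed in these settings, against 1910 with all samples. Within replicates 1 to 3 of both groups 33 of the 141 fell, and 17 did within replicates 4 to 6. Over all genes 1994 and 1528 changed within these sets.

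Col3a1, which encodes the chain of type III collagen, the pliable fibril of soft tissue, had a lowest, median and highest value of 12.10, 12.36 and 12.49 in DMSO and of 10.89, 11.20 and 11.47 with GW347845. Every treated sample lay below every control. It fell by 1.16 ± 0.09 (SE, n = 6 per group; adjusted p = 4.4e-07), a 2.24-fold change, and the fold change was -1.31 in replicates 1 to 3 against -1.02 in replicates 4 to 6. Its second probe changed by -0.25 and did not pass (adjusted p = 0.29). Col5a2, a chain of the type V collagen that nucleates collagen fibrils, ranged from 8.08 to 8.49 in DMSO and from 7.35 to 7.52 with GW347845. It fell by 0.78 ± 0.06 (adjusted p = 6.2e-07), and its second probe also fell, by 0.34 (adjusted p = 0.0017). Col1a2, the α2 chain of type I collagen, fell by 0.71 ± 0.09 (adjusted p = 4.1e-05), from a median of 9.96 to 9.18, without overlap. Its partner chain gene Col1a1 did not follow: its fold change was 0.20 ± 0.12 (adjusted p = 0.25), -0.07 in replicates 1 to 3 and 0.48 in replicates 4 to 6. Col4a2, a basement membrane chain, rose by 0.26 (adjusted p = 0.008).

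The promoters of Col3a1 and Col1a2, which fell without overlap, and of Plin4 and Acaa1b, which rose without overlap, are shown so that the control regions of genes that moved in opposite directions can be read side by side. They run from 250 bases before to 50 after the annotated start (RefSeq, GRCm38.p6), at chr1:45311288-45311587 on the plus strand for Col3a1, chr6:4505368-4505667 on the plus strand for Col1a2, chr17:56109733-56110032 on the minus strand for Plin4 and chr9:119157044-119157343 on the minus strand for Acaa1b. Capitals mark CCAAT boxes (CCAAT, or ATTGG on the other strand; in Acaa1b a box on each strand overlap in CCAATTGG), and the PPAR half-site AGGTCA was searched on both strands as well.
Col3a1: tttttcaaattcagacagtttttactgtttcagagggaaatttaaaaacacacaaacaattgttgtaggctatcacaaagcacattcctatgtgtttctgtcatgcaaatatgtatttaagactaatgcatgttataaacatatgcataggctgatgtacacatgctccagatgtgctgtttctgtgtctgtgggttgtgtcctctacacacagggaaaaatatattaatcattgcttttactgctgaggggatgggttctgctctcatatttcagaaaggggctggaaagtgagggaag
Col1a2: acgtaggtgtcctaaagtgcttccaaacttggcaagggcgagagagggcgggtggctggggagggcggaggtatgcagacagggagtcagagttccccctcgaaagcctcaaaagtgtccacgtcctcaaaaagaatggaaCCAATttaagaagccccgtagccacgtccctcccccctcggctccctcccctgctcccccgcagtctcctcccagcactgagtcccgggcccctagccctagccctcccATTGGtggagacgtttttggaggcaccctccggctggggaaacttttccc
Plin4: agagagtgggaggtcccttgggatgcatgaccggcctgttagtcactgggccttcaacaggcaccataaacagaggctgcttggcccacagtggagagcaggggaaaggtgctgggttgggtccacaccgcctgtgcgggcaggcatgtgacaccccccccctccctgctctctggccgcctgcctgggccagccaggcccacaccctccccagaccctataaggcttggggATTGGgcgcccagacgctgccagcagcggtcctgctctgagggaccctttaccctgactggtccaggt
Acaa1b: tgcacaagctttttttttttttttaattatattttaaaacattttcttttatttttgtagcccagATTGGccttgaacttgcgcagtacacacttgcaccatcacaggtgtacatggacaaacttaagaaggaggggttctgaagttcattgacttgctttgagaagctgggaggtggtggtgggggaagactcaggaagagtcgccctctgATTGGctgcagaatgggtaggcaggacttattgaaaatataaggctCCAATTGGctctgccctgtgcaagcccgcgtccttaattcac
Within these windows Col3a1 held 0 CCAAT boxes, Col1a2 held 2, Plin4 held 1 and Acaa1b held 4, and none held AGGTCA. Of 6799 measured genes with a promoter in the same table, 39.1% held CCAAT and 11.7% held AGGTCA. The shares were 37.4% and 13.1% among the 567 genes that fell without overlap and 38.3% and 9.04% among the 188 that rose without overlap. The direct repeat, AGGTCA followed after any single base by AGGTCA, on either strand, was found in 2 of the 6799 promoters and in 0 of those 188. Only exact matches inside these windows were searched, and the exact repeat was rare everywhere. An absence here therefore does not show that a gene lacks a PPAR site.

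Among the matrix glycoproteins and proteoglycans, 10 of 52 fell (19.2%, against 12.8% of all genes) and 4 rose (7.69%, against 10.2%). The rises were 0 without DMSO replicate 3, and 1 without DMSO replicate 5 or 6. Dpt, dermatopontin, which binds collagen fibrils and decorin, lay between 11.70 and 11.88 in DMSO and between 10.69 and 11.27 with GW347845, and fell by 0.87 ± 0.08 (adjusted p = 1.2e-06). Gpc4, a glypican anchored to the cell surface, fell by 0.71 (adjusted p = 6.8e-06), from a median of 8.72 to 7.91. Smaller falls without overlap were those of Igfbp7, an insulin-like growth factor binding protein of the matrix (-0.38, adjusted p = 1e-05), Lamb1, the laminin β1 chain (-0.39, adjusted p = 1.2e-05), and Vcan, the proteoglycan versican (-0.41, adjusted p = 0.00012). The second probe of Vcan changed by 0.01 (adjusted p = 0.91). None of the 19 genes of collagen processing and crosslinking passed the test, though 1 rose without GW347845 replicate 2 or 3, and 1 rose and 1 fell without GW347845 replicate 6.

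Of 31 matrix proteases and inhibitors 6 fell (19.4%, against 12.8% of all genes) and 1 rose. Mmp3, stromelysin, which degrades several matrix proteins and activates other metalloproteinases, had a lowest, median and highest value of 10.84, 11.06 and 11.10 in DMSO and of 9.55, 9.88 and 10.27 with GW347845. It fell by 1.16 ± 0.10 (adjusted p = 1e-06), without overlap. Its other probes changed by -0.36 (adjusted p = 0.11) and -0.46 (adjusted p = 0.028). Adam9, a membrane-bound sheddase, lay between 8.88 and 9.14 in DMSO and between 7.80 and 8.13 with GW347845, and fell by 1.07 ± 0.07 (adjusted p = 1.7e-07). Fap, a serine protease of activated fibroblasts, fell by 0.39 (adjusted p = 2.6e-05), and Timp1, the inhibitor of metalloproteinases, fell by 0.24 with overlap (adjusted p = 0.014), and by 0.18 on its second probe (adjusted p = 0.049). The rise was that of Htra3, a secreted serine protease that inhibits TGF-β signals, by 0.49 ± 0.07 (adjusted p = 5.7e-05), although its dimmer probe changed by 0.10 (adjusted p = 0.22).

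Of 23 integrin and focal adhesion genes, which hold cells to the matrix, 4 fell (17.4%, against 12.8% of all genes). In the same list 2 rose (8.7%, against 10.2% of all genes), and 4 did without GW347845 replicate 6. Ddr1, a collagen receptor tyrosine kinase, fell by 0.31 (adjusted p = 0.0016), with -0.48 in replicates 1 to 3 and -0.14 in replicates 4 to 6. Vcl, vinculin, fell by 0.23 (adjusted p = 0.0083). Flna, an actin crosslinker, rose by 0.33 (adjusted p = 0.004). For Itgb1, the β1 integrin subunit, the probes disagreed: the brighter one rose by 0.28 (adjusted p = 0.00031) and the dimmer one fell by 0.28 (adjusted p = 0.00093), and their mean changed by -0.0010 (adjusted p = 0.99).

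Of 47 Wnt genes measured, 5 fell (10.6%, against 12.8% of all genes) and 6 rose (12.8%, against 10.2%). A pair of single genes nevertheless lay among the largest falls of the comparison. Fzd1, a Frizzled receptor that binds Wnt ligands at the cell surface, had a lowest, median and highest value of 8.90, 9.14 and 9.30 in DMSO and of 7.72, 7.97 and 8.20 with GW347845. Its groups were far apart: it fell by 1.18 ± 0.09 (adjusted p = 3.1e-07), with -1.16 in replicates 1 to 3 and -1.19 in replicates 4 to 6. It was 1 of 10 receptors measured; 1 other passed, Ptk7, which rose by 0.17 (adjusted p = 0.04) and lost its call when any single sample other than GW347845 replicates 2, 3 and 5 and DMSO replicate 6 was left out.

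Sfrp2, a secreted protein that binds Wnt ligands and is usually described as an antagonist, lay between 8.97 and 9.17 in DMSO and between 7.77 and 8.11 with GW347845. It fell by 1.14 ± 0.06 (adjusted p = 5.1e-08), with -1.16 in replicates 1 to 3 and -1.12 in replicates 4 to 6. The other 4 secreted inhibitors measured and the 6 genes for ligands and their secretion did not pass, although a second inhibitor fell without GW347845 replicate 6 or DMSO replicate 2. A receptor and an inhibitor thus fell side by side. Adgra2 lies outside the Wnt lists and their counts and was named for the size of its fall. This adhesion receptor, known in brain endothelium as a coactivator of Wnt7 signals, fell by 1.10 ± 0.09 (adjusted p = 6.2e-07), from a median of 8.90 to 7.85.

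Inside the cell 3 of 26 Wnt pathway genes fell (11.5%, against 12.8% of all genes) and 5 rose (19.2%, against 10.2%). Ctnnb1, which encodes β-catenin, the transcriptional coactivator of the pathway and a part of cell junctions, had a lowest, median and highest value of 11.63, 11.66 and 11.81 in DMSO and of 10.89, 11.03 and 11.43 with GW347845. It fell by 0.63 ± 0.08 without overlap (adjusted p = 2.5e-05). Of its 2 other probes, one fell by 0.51 (adjusted p = 3.6e-05) and the dimmest changed by 0.07 (adjusted p = 0.47). Tcf7l2, the DNA-binding partner of β-catenin, moved the other way: it lay between 8.62 and 8.98 in DMSO and between 9.09 and 9.30 with GW347845, and rose by 0.47 ± 0.06 (adjusted p = 4.4e-05). Tnks2, a tankyrase that promotes axin turnover, rose by 0.30 (adjusted p = 0.00086) and Dvl1, which relays the receptor signal, by 0.28 (adjusted p = 0.0046). For these 3 genes DMSO replicate 2 was the highest control. Tle1, a corepressor, fell by 0.20 (adjusted p = 0.0073), while its 3 other probes did not pass (adjusted p = 0.23, 0.17 and 0.13).

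**Figure D3:**
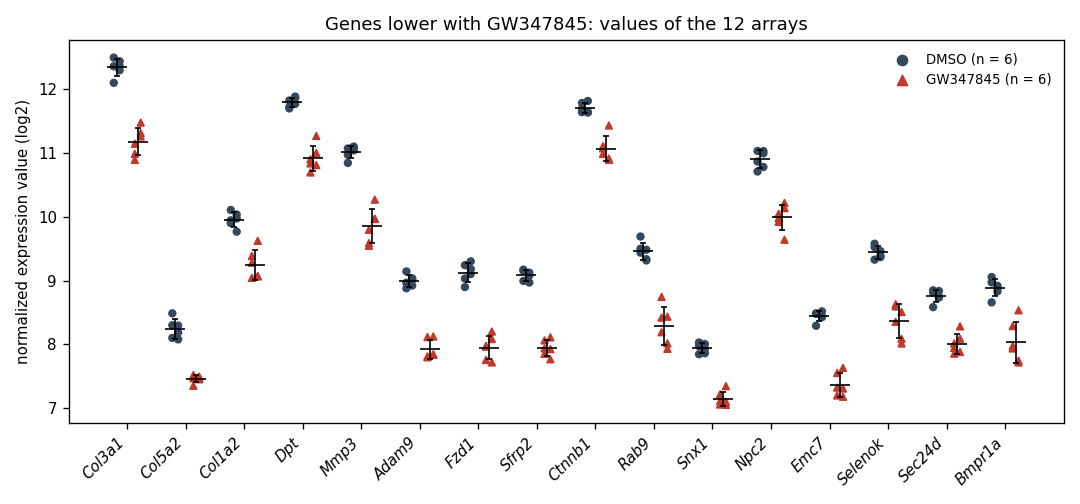
Normalized expression values (log2, vertical axis) of 16 genes in the 6 DMSO samples (circles) and the 6 GW347845 samples (triangles), with bars for the mean ± SD; within each group replicates 1 to 3 are drawn to the left of replicates 4 to 6. The groups do not overlap for any of the 16 genes, and for Fzd1 the controls span 8.90 to 9.30 and the treated samples 7.72 to 8.20.

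Genes of membrane traffic fell in 39 of 229 cases (17.0%, against 12.8% of all genes) and rose in 14. The median over the 229 was 0.00. Of the 39, 16 had a second probe, which fell in 2. The falls included Rab GTPases, the switches that give each vesicle its destination. Of 50 measured members and regulators 10 fell (20%, against 12.8% of all genes) and 2 rose (4%, against 10.2%). The rises were 4 without GW347845 replicate 1, 4 or 6.

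Rab9, which directs transport from late endosomes to the trans-Golgi, had a lowest, median and highest value of 9.32, 9.46 and 9.69 in DMSO and of 7.93, 8.31 and 8.74 with GW347845. It fell by 1.17 ± 0.12 (adjusted p = 3e-06), without overlap. The second probe of Rab9 changed by -0.04 (adjusted p = 0.58). Rab43, a Golgi Rab, fell by 0.73 ± 0.07 (adjusted p = 1.9e-06) on a probe whose partner changed by 0.10 (adjusted p = 0.42). Rab5c, of early endosomes, had 1 probe and fell by 0.48 ± 0.06 (adjusted p = 1.5e-05), from a range of 11.39 to 11.66 to one of 11.01 to 11.23. Rab10, which in adipocytes carries the glucose transporter GLUT4 to the surface in response to insulin, fell by 0.48 ± 0.07 (adjusted p = 7.3e-05), with a second probe at -0.09 (adjusted p = 0.28). Rab7b, of late endosomes and lysosomes, fell by 0.37 (adjusted p = 1.8e-05), with a second probe at -0.12 (adjusted p = 0.22). Rab3a, a Rab of regulated secretion, rose by 0.26 on its brighter probe (adjusted p = 0.00095) and fell by 0.21 on the other (adjusted p = 0.011).

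The sorting machinery of endosomes held 12 falls (16.9%, against 12.8% of all genes) and 6 rises (8.45%, against 10.2%) among 71 genes. The rises were 3 without DMSO replicate 4. Snx1, a sorting nexin that bends endosomal membrane, lay between 7.85 and 8.03 in DMSO and between 7.05 and 7.35 with GW347845, and fell by 0.79 ± 0.06 (adjusted p = 2.4e-07). Snx3, a nexin that works with the retromer coat, fell by 0.79 ± 0.07 (adjusted p = 1.8e-06). Of the retromer itself, Vps26b fell by 0.74 ± 0.08 (adjusted p = 4.7e-06) and Vps35 fell by 0.28 ± 0.05 (adjusted p = 0.00058), the second probe of Vps35 changing by 0.11 (adjusted p = 0.25). Chmp5, a subunit of the ESCRT-III complex that pinches off vesicles inside endosomes, fell by 0.86 ± 0.07 (adjusted p = 4.2e-07), from a median of 7.83 to 6.98. Stam2, of the ESCRT-0 complex that gathers ubiquitinated cargo, fell by 0.40 (adjusted p = 2.5e-05). All of these except Vps35 lay below the table's median signal of 8.16 in both groups, and none of their groups overlapped. Ap3d1, a subunit of the AP-3 adaptor, rose by 0.31 (adjusted p = 0.0005), with GW347845 replicate 4 the highest at 10.12. Ehd2, which stabilizes caveolae, rose by 0.38 on its brightest probe (adjusted p = 0.0008) and fell by 0.34 on the second (adjusted p = 0.0082), and the third changed by 0.15 (adjusted p = 0.067).

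Fusion factors and tethers gave 7 falls (11.3%, against 12.8% of all genes) and 4 rises (6.45%, against 10.2%) among 62. Gosr2, a Golgi SNARE for transport from the ER, fell by 0.68 ± 0.07 (adjusted p = 6.8e-06), but its 3 other probes changed by -0.03, -0.04 and 0.11. Vamp7, a SNARE of late endosomes and lysosomes, fell by 0.37 (adjusted p = 0.00023), from a range of 9.86 to 10.09 to one of 9.45 to 9.73. Snap29 fell by 0.28 (adjusted p = 0.0013). Golga2, the cis-Golgi tether GM130, rose by 0.24 (adjusted p = 0.0022), with other probes at 0.24, -0.16 and 0.21, and Cog4, of the Golgi tethering complex COG, rose by 0.21 (adjusted p = 0.0017). Vapa, an ER protein that binds lipid-transfer proteins at membrane contact sites and lies outside these lists, was among the 15 largest falls: its range was 8.83 to 9.21 in DMSO and 7.46 to 8.16 with GW347845, and it fell by 1.07 ± 0.10 (adjusted p = 1.6e-06).

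At the lysosome 10 of 46 genes fell (21.7%, against 12.8% of all genes) and 2 rose (4.35%, against 10.2%). The falls were 6 without GW347845 replicate 1 or without DMSO replicate 4 or 6. Npc2, the soluble protein that hands cholesterol from lysosomal contents to the membrane exporter NPC1, had a lowest, median and highest value of 10.71, 10.93 and 11.03 in DMSO and of 9.64, 10.01 and 10.22 with GW347845. It fell by 0.91 ± 0.09 (adjusted p = 2.4e-06), with -0.89 in replicates 1 to 3 and -0.94 in replicates 4 to 6. Subunits of the proton pump were split: Atp6v1a fell by 0.48 (adjusted p = 0.00018) and Atp6v1d fell by 0.42 (adjusted p = 0.00081), whereas Atp6v0a1 rose by 0.29 (adjusted p = 0.0009). Ctsb, the protease cathepsin B, fell by 0.33 (adjusted p = 0.00025), from a range of 13.17 to 13.36 to one of 12.82 to 13.08.

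Of 166 genes of the ER and Golgi, 27 fell (16.3%, against 12.8% of all genes) and 15 rose, with a median fold change of -0.01. Of 32 genes of translocation and signal cleavage 8 fell (25%) and 0 rose (2 without GW347845 replicate 3, and 1 without DMSO replicate 2). Of 43 genes of N-glycosylation 2 fell (4.65%; 4 genes without GW347845 replicate 5) and 5 rose (11.6%, against 10.2% of all genes). The 5 rises became 2 without DMSO replicate 4 and 3 without any of GW347845 replicates 1, 2, 4 or 5 or DMSO replicates 1, 3, 5 or 6. Among these genes, Stt3a, a catalytic subunit of the transferase, fell by 0.25 (adjusted p = 0.0037). With GW347845 replicates 1 to 3 against all controls 45 of the 166 fell, and with replicates 4 to 6 against all controls 23 did. Over all genes 2909 and 1906 changed in these settings, against 1910 with all samples. Within replicates 1 to 3 of both groups 28 of the 166 fell, and 24 did within replicates 4 to 6.

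The signal recognition particle, the RNA-protein complex that brings nascent secretory proteins to the ER, had 4 subunit genes that fell, each from 1 probe and each without overlap. Srp14 fell by 0.56 ± 0.08 (adjusted p = 0.00013), from a range of 11.81 to 12.05 to one of 11.12 to 11.62. Srp9, whose product pairs with that of Srp14 in the Alu domain, fell by 0.51 ± 0.05 (adjusted p = 1.2e-06), from a range of 9.67 to 9.76 to one of 9.08 to 9.32. Srp72 fell by 0.44 (adjusted p = 0.0002) and Srp19 fell by 0.34 (adjusted p = 0.00017). Emc7, a subunit of the complex that inserts membrane proteins into the ER, showed the largest fall of the list: its lowest, median and highest values were 8.29, 8.46 and 8.52 in DMSO and 7.18, 7.32 and 7.63 with GW347845, and it fell by 1.07 ± 0.08 (adjusted p = 2.4e-07).

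Folding and quality control in the ER gave 8 falls (19%, against 12.8% of all genes) and 2 rises (4.76%, against 10.2%) among 42 genes. Selenok, a selenoprotein of the ER membrane, lay between 9.33 and 9.58 in DMSO and between 8.01 and 8.63 with GW347845, and fell by 1.08 ± 0.10 (adjusted p = 1.6e-06). Fkbp7, an ER prolyl isomerase, fell by 0.95 ± 0.07 (adjusted p = 2.4e-07), from a median of 9.95 to 8.95. Txndc12, a thioredoxin-like oxidoreductase of the ER, fell by 0.92 ± 0.09 (adjusted p = 1.9e-06). Pdia6, a disulfide isomerase, fell by 0.37 (adjusted p = 0.00048), with a second probe at 0.07 (adjusted p = 0.24). In the unfolded protein response, Ern1, which encodes the sensor IRE1α, fell by 0.51 ± 0.05 (adjusted p = 4e-06), while Xbp1, whose mRNA that sensor splices, rose by 0.16 (adjusted p = 0.0087).

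Coat proteins and cargo receptors between ER and Golgi fell in 9 of 49 cases (18.4%, against 12.8% of all genes). They rose in 8 (16.3%, against 10.2%), and in 5 without GW347845 replicate 4. Sec24d, the COPII subunit that selects cargo, procollagen among it, lay between 8.58 and 8.85 in DMSO and between 7.86 and 8.28 with GW347845, and fell by 0.75 ± 0.07 (adjusted p = 1.9e-06). Ergic2, of the intermediate compartment, fell by 0.49 (adjusted p = 7.8e-06), and its second probe fell by 0.58 (adjusted p = 6.5e-05). The cargo receptor gene Cnih1 fell by 0.56 (adjusted p = 4.6e-05), Tmed2 fell by 0.51 (adjusted p = 4.1e-05), and Arcn1, the δ subunit of the COPI coat, fell by 0.33 (adjusted p = 0.00015). Preb, the exchange factor that starts COPII assembly, rose by 0.36 (adjusted p = 0.00036), and its second probe by 0.26 (adjusted p = 0.001), while the third changed by -0.03 (adjusted p = 0.68).

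**Figure D4:**
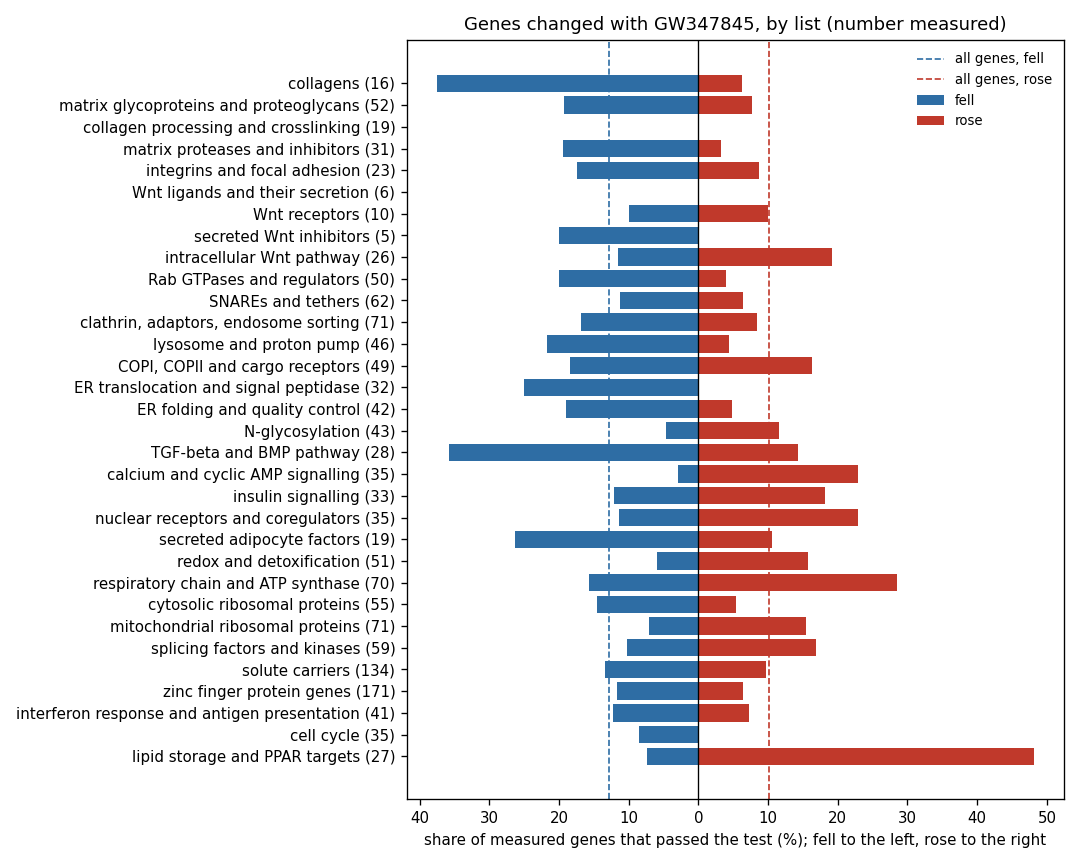
Share of the measured genes of each list (%, horizontal axis; number measured in parentheses) that fell with GW347845 (bars to the left) or rose (bars to the right), with dashed lines at the shares of all 8297 genes, 12.8% and 10.2%. Collagens (6 of 16) and the TGF-β and BMP pathway (10 of 28) have the longest bars to the left, and lipid storage and PPAR targets (13 of 27) the longest to the right; cell type markers are not drawn.

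The TGF-β and BMP pathway, which drives matrix production and the commitment of mesenchymal cells, held 10 falls and 4 rises among 28 genes (35.7% fell, against 12.8% of all genes). The falls were 7 to 9 whichever single sample was left out. The rises were 2 without GW347845 replicate 2 or DMSO replicate 4 and 1 without DMSO replicate 5 or 6. Bmpr1a, a BMP receptor, lay between 8.66 and 9.06 in DMSO and between 7.72 and 8.54 with GW347845, and fell by 0.85 ± 0.12 (adjusted p = 8.6e-05), with a second probe at 0.13 (adjusted p = 0.17). Smad1, which carries the BMP signal to the nucleus, fell by 0.51 ± 0.05 (adjusted p = 1.2e-06), and its second probe fell by 0.39 (adjusted p = 0.00074). Id2, a target of that signal, fell by 0.33 (adjusted p = 0.00011). Tgif1, a corepressor of Smad proteins, fell by 0.60 (adjusted p = 0.00011), with a second probe at -0.06 (adjusted p = 0.54). Tgfbr3, the coreceptor betaglycan, rose by 0.37 with overlap (adjusted p = 0.0025), by 0.20 in replicates 1 to 3 and by 0.54 in replicates 4 to 6. Its second probe changed by -0.13 (adjusted p = 0.16), and with its probes averaged the call was lost (adjusted p = 0.053).

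Other large falls came from unrelated functions. Thbd, thrombomodulin, a surface cofactor that turns thrombin towards anticoagulant protein C, had a lowest, median and highest value of 10.22, 10.38 and 10.44 in DMSO and of 8.98, 9.17 and 9.46 with GW347845, and it fell by 1.16 ± 0.08 (adjusted p = 1.7e-07). Idh2, the mitochondrial NADP-dependent isocitrate dehydrogenase, fell by 1.05 ± 0.07 (adjusted p = 2.1e-07), from a range of 11.59 to 11.81 to one of 10.50 to 10.91. Kpnb1, importin β1, which carries proteins into the nucleus, fell by 1.05 ± 0.10 (adjusted p = 1.4e-06). Anxa4, a membrane-binding annexin, fell by 1.05 ± 0.07 (adjusted p = 1.9e-07), and Fam114a1 fell by 1.11 ± 0.07 (adjusted p = 1.7e-07). The second probe of Anxa4 changed by -0.16 (adjusted p = 0.072). Among secreted factors 5 of 19 fell (26.3%, against 12.8% of all genes) and 2 rose (10.5%, against 10.2%). The rises were 4 without GW347845 replicate 6. Nampt, an enzyme of NAD synthesis that is also secreted by fat, fell by 0.86 ± 0.06 (adjusted p = 1.7e-07) and the chemokine gene Ccl2 fell by 0.40 ± 0.06 (adjusted p = 0.0002).

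Genes of lipid and xenobiotic handling were among the largest rises without overlap, and they differed in size between the replicate sets. Of 27 genes of lipid storage and PPAR targets 13 rose (48.1%, against 10.2% of all genes) and 2 fell. The 13 rises became 19 without GW347845 replicate 6, 8 without GW347845 replicate 1 or 3, and 7 without GW347845 replicate 2 or DMSO replicate 4, 5 or 6, and the falls lay between 1 and 3 over all single samples left out. Acaa1b, a peroxisomal thiolase of fatty acid oxidation, had a lowest, median and highest value of 6.82, 7.06 and 7.36 in DMSO and of 7.44, 8.74 and 10.19 with GW347845. It rose by 1.72 ± 0.41 (adjusted p = 0.0066), by 2.68 in replicates 1 to 3 and by 0.76 in replicates 4 to 6. Plin4, a coat protein of small lipid droplets, rose by 1.31 ± 0.26 (adjusted p = 0.0017), by 1.61 and by 1.01 in these sets. Ephx2, the soluble epoxide hydrolase that degrades epoxy fatty acids, lay between 9.09 and 9.50 in DMSO and between 9.68 and 11.20 with GW347845, and rose by 1.18 ± 0.23 (adjusted p = 0.0017), by 1.66 and by 0.70. The 3 highest treated values of Acaa1b, Plin4 and Ephx2 were those of replicates 1 to 3, and the adipocyte marker mean was higher in the same samples; its part in these rises was not tested.

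The other rises described next were also without overlap, some of them larger in replicates 1 to 3 and some even. Aldoa, the glycolytic aldolase, rose by 0.66 ± 0.12 (adjusted p = 0.0012), from a range of 11.16 to 11.41 to one of 11.60 to 12.47, by 0.84 in replicates 1 to 3 and by 0.48 in replicates 4 to 6. Hmox1, heme oxygenase, which frees iron and carbon monoxide from heme, rose by 0.61 ± 0.13 (adjusted p = 0.0029), with similar sizes in replicates 1 to 3 (0.58) and 4 to 6 (0.64). Fads3, of the fatty acid desaturase family, rose by 0.57 ± 0.06 (adjusted p = 4.2e-06), by 0.47 and by 0.66 in these sets. Fgfrl1, a fibroblast growth factor receptor that lacks the kinase domain, rose by 0.55 ± 0.10 (adjusted p = 0.0011), by 0.73 and by 0.38. Gper1, a membrane estrogen receptor, lay between 7.19 and 7.39 in DMSO and between 7.71 and 7.89 with GW347845, and rose by 0.51 ± 0.05 (adjusted p = 1.2e-06), by 0.49 and by 0.54 in the replicate sets. Cluh, which binds mRNAs of mitochondrial proteins, rose by 0.49 ± 0.12 (adjusted p = 0.0093), by 0.63 and by 0.35. Acaa2, a mitochondrial thiolase, rose by 0.49 ± 0.10 (adjusted p = 0.0018), by 0.74 and by 0.24, the 3 other probes of Acaa2 not passing (adjusted p = 0.075, 0.063 and 0.2). Slc40a1, the iron exporter ferroportin, rose by 0.38 ± 0.07 (adjusted p = 0.00058), by 0.27 and by 0.49.

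Prl2c2, Prl2c3 and Prl2c4, near-identical genes of the prolactin family known as proliferins, also stood among the 15 largest rises without overlap, at 0.57, 0.57 and 0.54 (adjusted p = 0.014, 0.019 and 0.024). The second probe of Prl2c2 rose by 0.33 (adjusted p = 0.034). Their probes can share transcripts, so they count as uncertain. GW347845 replicate 6 was the highest sample for all 3, and the call for Prl2c4 was lost without DMSO replicate 1 or DMSO replicate 4.

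**Figure D5:**
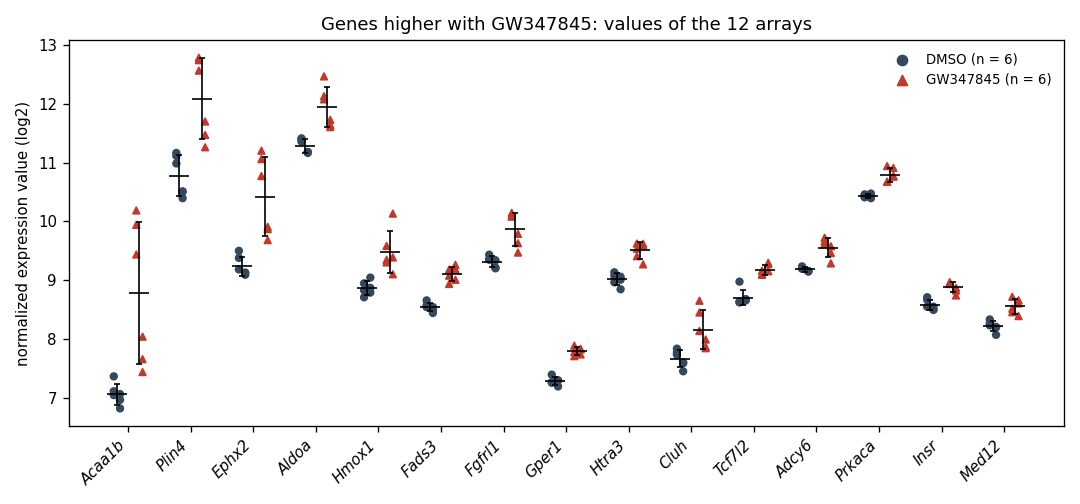
Normalized expression values (log2, vertical axis) of 15 genes in the 6 DMSO samples (circles) and the 6 GW347845 samples (triangles), with bars for the mean ± SD; within each group replicates 1 to 3 are drawn to the left of replicates 4 to 6. The treated samples of Acaa1b spread from 7.44 to 10.19 and split by replicate set, whereas those of Gper1 lie within 7.71 to 7.89.

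The signalling genes that rose did so by small amounts. Of 35 genes of calcium and cyclic AMP signalling 8 rose (22.9%, against 10.2% of all genes) and 1 fell, and without DMSO replicate 3 or 4 the rises were 5. Prkaca, the catalytic subunit of protein kinase A, which triggers lipolysis, rose by 0.35 ± 0.05 (adjusted p = 0.00012), from a range of 10.39 to 10.47 to one of 10.67 to 10.94, with a dimmer probe at 0.10 (adjusted p = 0.3). Adcy6, an adenylyl cyclase, rose by 0.37 ± 0.06 (adjusted p = 0.00047), and Itpr2, a calcium channel of the ER, by 0.32 ± 0.07 (adjusted p = 0.0019). Pde1b, which degrades cyclic nucleotides, rose by 0.20 (adjusted p = 0.0048), and its second probe by 0.24 (adjusted p = 0.012).

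Of 33 insulin signalling genes 6 rose (18.2%, against 10.2% of all genes) and 4 fell (12.1%, near the 12.8% of all genes). Insr, the insulin receptor, lay between 8.50 and 8.71 in DMSO and between 8.74 and 8.97 with GW347845, and rose by 0.30 ± 0.05 (adjusted p = 0.00063). Eif4ebp1, a translational repressor under insulin control, rose by 0.29 (adjusted p = 0.0028), by 0.47 in replicates 1 to 3 and by 0.11 in replicates 4 to 6. Grb14, an adaptor that inhibits the insulin receptor, fell by 0.33 (adjusted p = 0.00027), the ubiquitin ligase gene Cblb fell by 0.42 (adjusted p = 3.7e-05) and Socs2, a feedback inhibitor of cytokine receptors, fell by 0.35 (adjusted p = 0.0038). Among 35 nuclear receptors and coregulators 8 rose (22.9%, against 10.2% of all genes) and 4 fell (11.4%, against 12.8%). The rises were 5 without GW347845 replicate 4 or 5 or DMSO replicate 2, 3 or 4, and 4 without DMSO replicate 6. The mediator subunits moved apart: Med12 rose by 0.34 (adjusted p = 0.00071), whereas Med1, the subunit that binds PPARγ, fell by 0.44 (adjusted p = 0.00016) on its brighter probe and changed by 0.10 (adjusted p = 0.11) on the other. Hdac2 fell by 0.35 (adjusted p = 0.00031), Sin3b rose by 0.21 (adjusted p = 0.002), and Chd9, a chromatin remodeller that can bind PPARα, rose by 0.22 (adjusted p = 0.0033) with a second probe at 0.23 (adjusted p = 0.011).

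Mitochondrial genes moved in both directions. Of 70 respiratory chain and ATP synthase genes 20 rose (28.6%, against 10.2% of all genes) and 11 fell (15.7%, against 12.8%). The count of rises moved with several of the samples left out. It was 36 without GW347845 replicate 6, 8 without GW347845 replicate 1 or DMSO replicate 4, and 9 without GW347845 replicate 2 or 3. It was 12 without DMSO replicate 5 or 6 and 13 without DMSO replicate 2. Taken over the list, the median was 0.25 within replicates 1 to 3 but 0.00 within replicates 4 to 6. Only 1 of the 20 rises was without overlap, against 6 of the 11 falls. Falls were more often without overlap over all genes too (692 of 1063, against 230 of 847 rises). Uqcrc1, a core subunit of complex III, rose by 0.34 (adjusted p = 0.0086), while Atp5a1, the ATP synthase α subunit, fell by 0.75 ± 0.09 (adjusted p = 3.1e-05), from a range of 8.61 to 8.87 to one of 7.72 to 8.35. The complex I genes Ndufb9 and Ndufb4 changed by -0.83 (adjusted p = 0.00076) and -0.50 (adjusted p = 1.1e-05). Mrpl52, of the mitochondrial ribosome, fell by 0.72 ± 0.06 (adjusted p = 5.1e-07). In its list of 71 genes 11 rose (15.5%, against 10.2% of all genes) and 5 fell (7.04%, against 12.8%). The rises were 17 without GW347845 replicate 6. In redox control Mgst3, a glutathione transferase, rose by 0.56 (adjusted p = 0.0025), and by 0.44 on its second probe (adjusted p = 0.037), and Txn1, thioredoxin, fell by 0.81 ± 0.11 (adjusted p = 7.3e-05). Of 134 solute carriers 13 rose (9.7%) and 18 fell (13.4%), shares near those of all genes (10.2% and 12.8%), and 23 rose without GW347845 replicate 6 and 8 without DMSO replicate 4 or 5. In that list Slc23a2, a vitamin C transporter, fell by 0.77 ± 0.08 (adjusted p = 6.8e-06).

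Whether these changes differed from those with the PPARδ agonist was tested on each treated sample minus its control mean. The DMSO hybridizations are shared, and the labelled doses differ (100 μM for GW347845 and 1 μM for GW610742), so the compounds were not compared at matched doses. Over 8196 genes measured for both agonists, 1118 were lower with GW347845 (13.6%) and 1158 higher (14.1%). The spread of the controls is left out of this test. In the matrix group 29 of 140 genes were lower (20.7%) and 7 higher. In membrane traffic 40 of 227 were lower (17.6%) and 32 higher, in the ER and Golgi 34 of 164 were lower (20.7%) and 17 higher, and among Wnt genes 8 of 47 were lower (17%) and 9 higher.

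For the 15 largest falls the change with GW610742 lay between -0.16 (Thbd) and 0.30 (Vapa), and the difference passed for each. These genes were picked by their fall with GW347845, and the difference uses the same treated values and control means. That it passed, and the adjusted p-values given with it, are therefore a description and not separate support. The same holds for genes below that were picked by their rise. Col3a1 changed by -1.16 with GW347845 and by 0.17 with GW610742, a difference of -1.33 (adjusted p = 7.4e-08). Fzd1 changed by -1.18 and 0.18 (difference -1.36, adjusted p = 1.5e-07), and Sfrp2 by -1.14 and -0.01 (difference -1.13, adjusted p = 1.2e-07). Rab9 changed by -1.17 and 0.18 (difference -1.35, adjusted p = 5.5e-07), and Emc7 by -1.07 and 0.09 (difference -1.17, adjusted p = 1.2e-07). S100a4, a calcium-binding protein of fibroblasts and 1 of the 3 preadipocyte markers that fell, changed by -0.71 with GW347845 and 0.36 with GW610742 (difference -1.06, adjusted p = 3.1e-07). Gata3, a transcription factor of preadipocytes, changed by -0.24 and -0.14, a difference of -0.10 that did not pass (adjusted p = 0.2).

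Among the rises the difference between the agonists passed for some genes and not for others. Angptl4, a secreted inhibitor of lipoprotein lipase and a textbook PPAR target, rose by 0.25 ± 0.05 with GW347845 (adjusted p = 0.0014) and changed by 0.80 with GW610742, a difference of -0.55 (adjusted p = 5.5e-07). Pde1b was also lower with GW347845 than with GW610742 (difference -0.35, adjusted p = 0.00075). Fgfrl1 changed by 0.55 and 0.01 (difference 0.54, adjusted p = 0.0022), Fads3 by 0.57 and 0.14 (difference 0.43, adjusted p = 4.7e-05), and Tcf7l2 by 0.47 and 0.10 (difference 0.37, adjusted p = 3.8e-05). For Ephx2 (1.18 and 0.66), Plin4 (1.31 and 0.65), Htra3 (0.49 and 0.40) and Acaa2 (0.49 and 0.59) the difference did not pass (adjusted p = 0.11, 0.057, 0.29 and 0.44). A difference that did not pass does not show that the changes were alike.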

How the data were processed

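Expression was measured on Illumina mouse bead arrays. The authors processed the signals with lumi (variance-stabilizing transformation, then quantile normalization of the 12 samples of each comparison together) and removed probes not above the negative controls, and the deposited values are on a log2-like scale; lumi's version and the genome build are not given in the sources used here. Array number limits the precision, and folds of dim probes are compressed on this scale.

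The 6 GW347845 and 6 DMSO samples, grouped by their labels, were compared with limma 3.58.1 (lmFit and eBayes, R 4.3.3) over 13755 probes with Benjamini-Hochberg adjustment at 0.05, tested on simulated data. Platform annotation gave 11992 of these probes 1 gene symbol, 4 probes of the whole table several and 1803 none; the brightest probe stood for each of 8297 genes, 2730 of which had more than 1. The same DMSO hybridizations served both agonists (lowest correlation of deviations of same-numbered samples 0.9987). Columns of authors' comparisons were not used.

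The genes, lists and tests were chosen with earlier results of these data known. Named genes were the 15 largest rises and 15 largest falls without overlap, up to 5 called members (smallest adjusted p) and up to 2 others per list, and markers. Tle1, Rab3a, Vps35, Ehd2, Ap3d1, Xbp1, Preb, Uqcrc1 and Slc40a1 were chosen after their values were seen. Promoters are from RefSeq. Alternatives covered adjustment, block, variance prior, array weights, scaling, dim probes, replicate sets, Student's t-test, probe averaging and single samples left out.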

Additional observations from a re-analysis of the deposited data

Results flagged for a closer look

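In several genes 1 sample lay apart from the other 5 of its group by more than Dixon's critical value for 6 samples, which chance gives for about 1 group in 20. DMSO replicate 2 was the highest control for Tcf7l2 (8.98), Tnks2 (10.25), Dvl1 (8.61) and Tgfbr3 (11.07), and the lowest for Atp6v1d (8.36). DMSO replicate 1 was the highest control for Vapa (9.21), Xbp1 (11.64) and S100a4 (10.73). Snx3 had its highest control in DMSO replicate 4 (8.07), and Vps26b its lowest in DMSO replicate 5 (7.35). Among the treated samples, GW347845 replicate 4 was the lowest for Snap29 (8.69) and the highest for Ap3d1 (10.12). GW347845 replicate 6 was the highest for Prl2c2 (9.30), Prl2c3 (9.13) and Prl2c4 (8.89), whose probes can share transcripts.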

How the results depend on the processing

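The counts of changed probes and genes stayed within 1.5 times their main value (3282 and 1910) except where stated here. At an unadjusted p under 0.05, 5007 probes and 2940 genes changed, and 8 Wnt genes fell against 5. With GW347845 replicates 1 to 3 against all controls, 2909 genes changed and 46 matrix, 12 Wnt and 45 ER and Golgi genes fell, against 26, 5 and 27; the cause was not tested. Within replicates 4 to 6 of both groups 17 matrix genes fell. The count of called probes without overlap, 1624 in all samples, was 3835 and 2687 with treated replicates 1 to 3 or 4 to 6 against all controls, and 3161 and 2621 within these sets of both groups, where fewer samples need to separate. With each sample left out in turn, changed probes ranged from 2654 to 4013 and changed genes from 1524 to 2376.

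Same-numbered samples shared deviations unevenly (correlations from -0.01 to 0.54, under 0.1 for number 2). The best-matching control had the same number for treated replicates 3, 5 and 6. Because the replicate sets also share deviations, these correlations cannot decide whether the numbers pair the samples. The main test used no pairing, and with the replicate number as a block 3751 probes and 2210 genes changed. Single genes reversed sign in few settings: Itgb1 changed by -0.0010 with all its probes averaged, Adipoq by -0.41 with treated replicates 4 to 6 against all controls and by -0.044 within replicates 4 to 6, and Col1a1 by -0.071 both with treated replicates 1 to 3 against all controls and within replicates 1 to 3. Median centring changed nothing, since the values were quantile normalized. The within-set and set-block alternatives were chosen after seeing the data.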
